A study of Caenorhabditis elegans with 20 samples.

Results

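The genes described here are 10 chaperone genes of *Caenorhabditis elegans*, chosen by name and not by any measured value, out of 28301 genes in the count table. They are the inducible cytosolic genes hsp-16.1, hsp-16.2, hsp-16.41, hsp-16.48 and hsp-70, the constitutive cytosolic gene hsp-1, the endoplasmic reticulum genes hsp-3 and hsp-4, and the mitochondrial genes hsp-6 and hsp-60. Of the 10, 8 passed the filter on low counts that left 13795 genes for testing, and hsp-16.1 and hsp-16.48 did not. RNA came from whole wild-type animals, strain N2 by the column names, and from animals labelled nhr-131 (mutants below), after a nuclear hormone receptor gene. The labels give no allele. Cultures synchronized at the L1 stage were grown in liquid to L4 and held for the last 4 h with either 2.5 µM F17, a compound given by this code name alone, or the solvent DMSO at 0.1%. The 4 groups of 5 libraries are DMSO-treated wild type, F17-treated wild type, DMSO-treated mutants and F17-treated mutants. The comparisons ask whether chaperone transcripts responded to F17, whether they depended on nhr-131, and whether the F17 effect differed between genotypes.

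Chaperones bind unfolded proteins and help them fold. When unfolded proteins build up, cells raise the chaperones of the compartment in trouble. In the cytosol the heat shock factor HSF-1 switches on small heat shock proteins and inducible HSP70. In the endoplasmic reticulum the sensor IRE-1 and its target XBP-1 raise the HSP70 of that compartment, known as BiP, and in mitochondria ATFS-1 raises HSP70 and HSP60. In the worm, reporter strains for hsp-16.2, hsp-4, hsp-6 and hsp-60 are widely used as readouts of these responses.

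Total counts were 14834464 to 23150429 in DMSO-treated wild type, 14403626 to 22465236 in F17-treated wild type, 12836432 to 23618692 in DMSO-treated mutants and 15836593 to 26908383 in F17-treated mutants. Counts of nhr-131 itself were 77 to 196 in wild-type libraries and 0 to 4 in libraries labelled nhr-131. The columns of each group carry the letters a to e, which name libraries below and were not matched to replicate numbers. The leading component of within-group variation, computed without the chaperone genes and the chaperone pathway lists, held 53.9% of that variation and set 6 libraries apart from the other 14. In DMSO-treated wild type these were a and c, in F17-treated wild type a and d, and in each mutant group c. All 6 yolk protein genes, which are switched on toward adulthood, were lower in each of the 6 libraries than in the rest of its group, with a median log2 difference of -5.68. The groups hold unequal numbers of these libraries (2 of 5 in each wild-type group, 1 of 5 in each nhr-131 group), so results are given with and without them.

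Levels are read counts scaled to a common library size (CPM) with TMM factors. Per kilobase of coding sequence, over the 20 libraries, hsp-1 stood highest at a mean of 1698 CPM per kb. It was followed by hsp-3 at 1346, hsp-60 at 423, hsp-6 at 365 and hsp-4 at 148 CPM per kb. The inducible genes lay lower still, with hsp-16.2 at 30.8, hsp-16.41 at 28.6 and hsp-70 at 23.04 CPM per kb. The constitutive and organelle chaperones varied little between libraries, the highest library being between 1.56 times (hsp-6) and 1.95 times (hsp-60) the lowest. The inducible genes varied 20.2-fold (hsp-16.2) and 31.3-fold (hsp-16.41), and hsp-70 ran from 5.31 to 86.0 CPM.

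**Figure D1:**
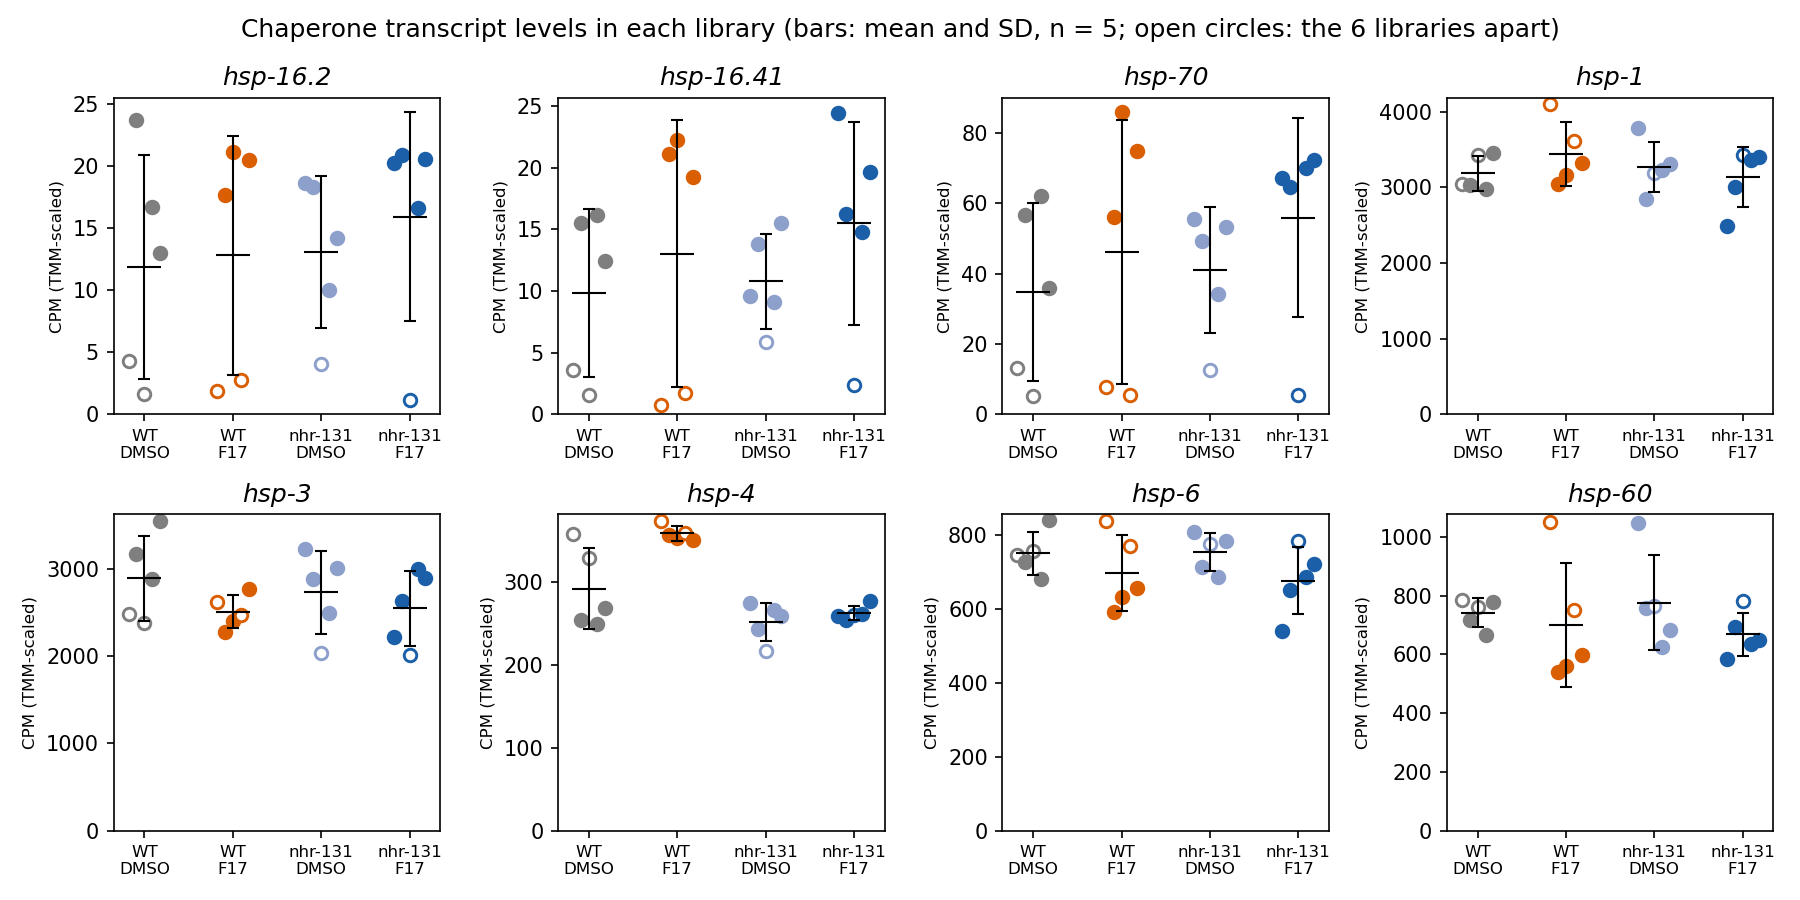
Level of each tested chaperone gene (CPM, TMM-scaled) in each of the 20 libraries by group; horizontal bars and whiskers are the mean and SD of 5 libraries, and open circles are the 6 libraries apart. The open circles lie below all filled ones for hsp-16.2, hsp-16.41 and hsp-70, and the 5 libraries of hsp-4 in F17-treated wild type (350.4 to 373.4 CPM) lie above the 5 of F17-treated mutants (253.8 to 277.0 CPM).

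The gene with a difference past the threshold was hsp-4, on chromosome II, which encodes a BiP-type HSP70 of the endoplasmic reticulum and is the classic target of the IRE-1 and XBP-1 branch. In DMSO-treated wild type its libraries a to e read 357.6, 254.2, 327.9, 248.8 and 268.7 CPM, and in F17-treated wild type they read 373.4, 356.4, 353.2, 358.5 and 350.4 CPM. In nhr-131 the libraries read 274.2, 243.2, 215.9, 266.3 and 258.5 CPM with DMSO and 258.8, 253.8, 259.9, 260.9 and 277.0 CPM with F17. The group of F17-treated wild type was the high one and the tightest relative to its level, while the nhr-131 groups overlapped each other. In DMSO-treated wild type, library a lay in the range of the F17 group and library c below it, both being among the 6 apart, and the other 3 lay in the range of the mutant.

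With F17, hsp-4 was lower in nhr-131 than in wild type. The means were 262 ± 8.78 and 358 ± 8.92 CPM (SD, n = 5 each), and no library of the mutant reached the lowest wild-type library. The log2 fold change was -0.45 with a standard error (SE) of 0.10 and an adjusted p of 0.0329 by edgeR's quasi-likelihood test. As a ratio the mutant stood at 0.731 of wild type, with a 95% interval from 0.631 to 0.848. It was the single call among the 8 tested chaperones, in a comparison in which 0.747% of all genes were called lower and 1.28% in either direction. Groups of 2.15% of all genes did not overlap with the mutant lower. In this comparison 6 of 6 yolk genes had log2 fold changes above 0, with a median of 3.02. Of sperm, oocyte and molt genes 0 of 26, 1 of 10 and 0 of 6 did, with medians of -0.66, -0.68 and -0.87. The median over all genes was -0.03. Beyond a refit with a score of yolk, sperm and oocyte genes, described below, their part in the hsp-4 difference was not tested.

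This call is near the threshold. It was lost, at an adjusted p of 0.135, when no filter on low counts was used, and under the omission of any wild-type library given F17 or of nhr-131 library a, b or d given F17. Over the 10 omissions within these groups the fold change ran from -0.47 to -0.44 and the adjusted p from 0.0376 to 0.110. The call held without the 6 libraries apart (-0.43, adjusted p = 0.00523, where 7.55% of all genes were called), with the DESeq2 Wald test (adjusted p = 0.00106) and with limma-voom (adjusted p = 0.0257). DESeq2 called 537 and limma-voom 209 of 13795 genes there, against 177 by edgeR.

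The other comparisons of hsp-4 did not pass. In wild type hsp-4 read 291 ± 48.6 CPM with DMSO and 358 ± 8.92 CPM with F17 (SD, n = 5 each), a log2 fold change of 0.30. The SE was 0.10 and the adjusted p 0.367 by edgeR. In that comparison 0 of the 8 chaperones were called, against 0.928% of all genes, and hsp-4 alone was under a raw p of 0.05, against 7.6% of all genes. In nhr-131 the F17 effect on hsp-4 was 0.06 (SE 0.10, adjusted p = 0.99996 by edgeR). The difference between these effects was -0.24 (95% interval -0.54 to 0.06, adjusted p = 0.9998 by edgeR), so an F17 effect limited to wild type was not established. In the same wild-type comparison 10 of 10 oocyte genes and 26 of 26 sperm genes had log2 fold changes above 0, with medians of 1.301 and 1.01, and 0 of 6 yolk genes did, with a median of -1.06. None of these was called by edgeR, and 6, 10 and 0 were under a raw p of 0.05. With a score of these genes added to the model as a covariate, hsp-4 gave 0.28 (adjusted p = 0.283 by edgeR). That score was not centred within groups, so the covariate and F17 cannot be fully told apart there. Beyond this refit, the part of these genes in the hsp-4 values was not tested. With DMSO alone the genotypes differed by -0.21 (adjusted p = 0.985 by edgeR), with means of 252 ± 23.01 CPM in the mutant (SD, n = 5) against 291 CPM.

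Among the 14 libraries left without those apart, hsp-4 read 248.8 to 268.7 CPM in 3 libraries of DMSO-treated wild type and 350.4 to 356.4 CPM in 3 libraries of F17-treated wild type. In nhr-131 it read 243.2 to 274.2 CPM in 4 libraries with DMSO and 253.8 to 277.0 CPM in 4 libraries with F17. Here hsp-4 was called higher with F17 in wild type, by 0.45 on the log2 scale (adjusted p = 0.00773 by edgeR), where 6.71% of all genes were called. The difference of the F17 effects was -0.44 and did not pass (adjusted p = 0.0861 by edgeR, with 0.859% of all genes called), and the genotype difference with DMSO was 0.01, opposite in sign to that over all libraries. For these libraries, in a comparison chosen after seeing the data, the groups given DMSO and F17 in wild type (3 against 3) did not overlap for 5 of the 8 chaperones, hsp-4 and hsp-16.41 being higher with F17 and hsp-3, hsp-6 and hsp-60 lower. The groups of 33.4% of all genes did not overlap there.

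**Figure D2:**
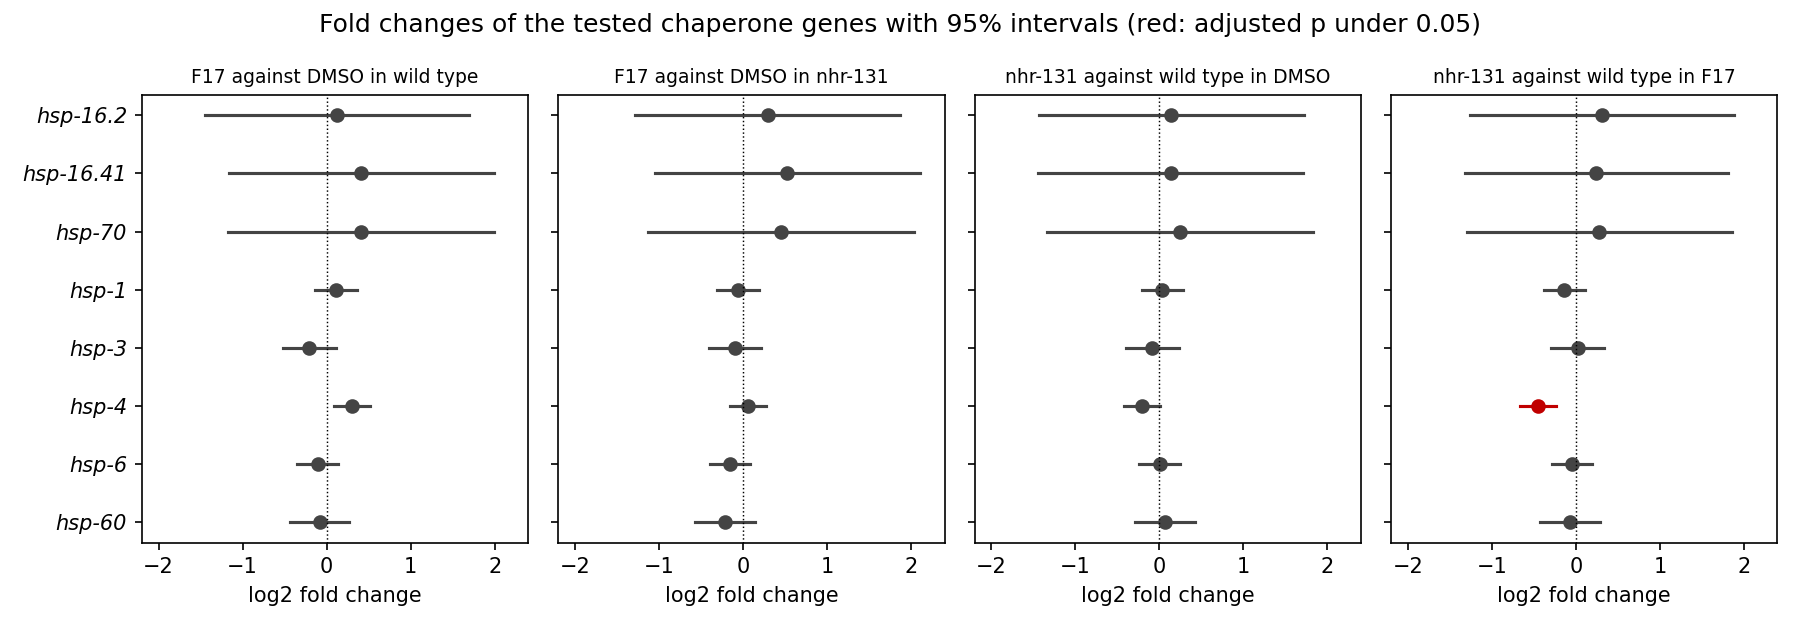
Log2 fold changes of the 8 tested chaperone genes in 4 comparisons, with 95% intervals from the edgeR model; red marks an adjusted p under 0.05. The red point is hsp-4 at -0.45 between genotypes under F17, and the intervals of hsp-16.2, hsp-16.41 and hsp-70 span more than 3 log2 units in each panel.

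The second BiP gene of the worm, hsp-3, on chromosome X, did not follow hsp-4. Its libraries a to e read 2482, 3167, 2374, 2887 and 3548 CPM in DMSO-treated wild type and 2624, 2278, 2400, 2475 and 2770 CPM in F17-treated wild type. They read 3228, 2883, 2033, 2490 and 3007 CPM in DMSO-treated mutants and 2213, 2625, 2006, 3002 and 2898 CPM in F17-treated mutants. All 4 groups overlapped over all 20 libraries. The log2 fold change of F17 was -0.20 in wild type (95% interval -0.52 to 0.11) and -0.10 in nhr-131 (-0.41 to 0.21), and the genotypes differed by 0.02 in F17 (-0.29 to 0.33). Without the 6 libraries apart hsp-3 read 2887 to 3548 CPM with DMSO and 2278 to 2770 CPM with F17 in wild type, a log2 fold change of -0.38 that did not pass (adjusted p = 0.125 by edgeR). Ratios of hsp-3 to hsp-4 were taken between levels per kilobase of coding sequence. They ran from 6.35 to 7.86 in F17-treated wild type and from 6.90 to 13.1 in DMSO-treated wild type. In mutants they ran from 9.295 to 11.8 with DMSO and from 7.67 to 11.4 with F17.

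Other genes of the endoplasmic reticulum unfolded protein response were not called. Of 38 listed genes 35 were tested, and 0 of 35 passed in any of the 6 comparisons by edgeR. Between genotypes under F17, 5 of the 35 were under a raw p of 0.05, against 15% of all genes, and the list median was 0.01 against -0.03 over all genes. These 5, named after their values were seen, were abu-1 (1.71), uggt-1 (0.27), ero-1 (-0.16), pdi-1 (-0.38) and dnj-27 (-0.52), with log2 fold changes of both signs. Of them dnj-27, whose product is a thioredoxin-domain J protein of the endoplasmic reticulum, had an adjusted p of 0.0535 by edgeR. It was the 1 gene of the 35 called by DESeq2 and by limma-voom. Of the 13795 genes tested, DESeq2 called 537 in this comparison and limma-voom 209, against 177 by edgeR. The transcription factor gene xbp-1 differed by 0.16 (adjusted p = 0.635) and enpl-1, the HSP90 of the endoplasmic reticulum, by -0.15 (adjusted p = 0.593), both by edgeR. Once group levels were removed, xbp-1 was lower in each of the 6 libraries apart than in every other library, with a log2 difference of -0.47. It is among the 7 of the 35 tested genes of the list for which this held (20% against 11.2% of all genes). The groups hold unequal numbers of these libraries, and their part in the list values was not tested. For F17 in wild type 2 of the 35 were under a raw p of 0.05, against 7.6% of all genes. The list median was -0.10 against -0.01 over all genes.

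**Figure D3:**
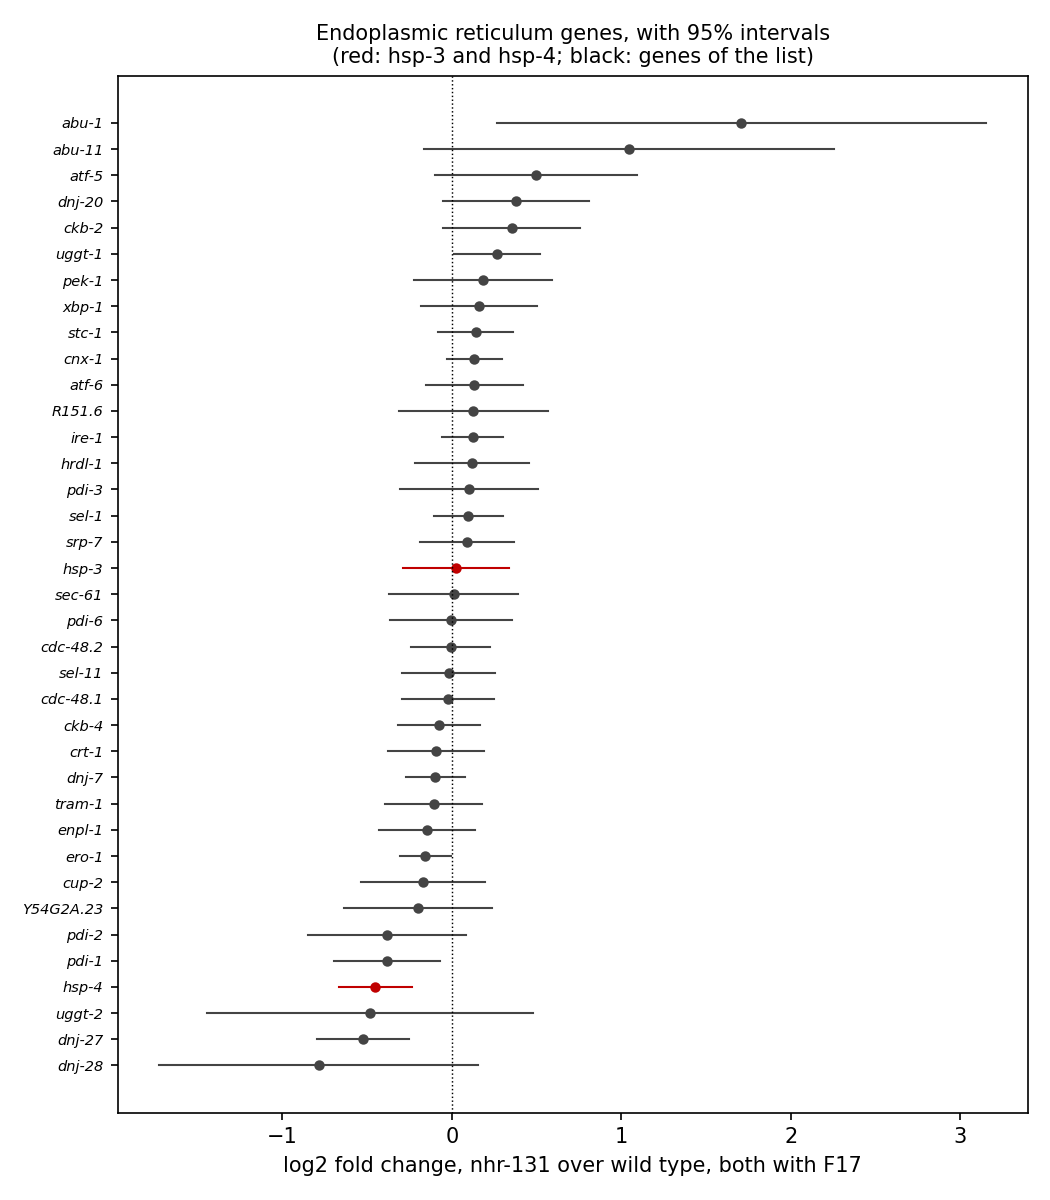
Log2 fold changes, nhr-131 over F17-treated wild type, for the 35 tested genes of the endoplasmic reticulum list and for hsp-3 and hsp-4 (red), with 95% intervals from the edgeR model. hsp-4 lies at -0.45 among the lowest, while hsp-3 (0.02) and xbp-1 (0.16) lie near 0 and abu-1 (1.71) is highest.

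Of the inducible cytosolic genes, hsp-16.2 encodes an alpha-crystallin type small heat shock protein that holds unfolded proteins. Its libraries a to e read 4.29, 23.7, 1.61, 16.7 and 12.97 CPM in DMSO-treated wild type and 1.88, 17.7, 21.1, 2.79 and 20.5 CPM in F17-treated wild type. They read 18.6, 18.3, 4.09, 9.995 and 14.2 CPM in DMSO-treated mutants and 20.2, 20.9, 1.17, 16.7 and 20.6 CPM in F17-treated mutants. Every group had low libraries, and these were the 6 apart: 1.17 to 4.29 CPM, against 9.995 to 23.7 CPM in the other 14.

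The neighbouring small heat shock gene hsp-16.41, of the same kind and read from the opposite strand of chromosome V, showed the same division. It read 0.782 to 5.90 CPM in the 6 libraries apart and 9.09 to 24.5 CPM in the other 14. The labels name a directional library kit but not whether counting used the strand. The ratio of hsp-16.2 to hsp-16.41, per kilobase of coding sequence, had a median of 1.04 over the 20 libraries and ran from 0.493 to 2.37.

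The inducible HSP70 gene hsp-70, on chromosome I, read 13.3, 56.7, 5.31, 62.1 and 36.03 CPM in libraries a to e of DMSO-treated wild type and 7.66, 56.2, 86.0, 5.58 and 74.98 CPM in F17-treated wild type. In nhr-131 it read 55.5, 49.4, 12.64, 34.4 and 53.3 CPM with DMSO and 67.2, 64.5, 5.52, 69.9 and 72.4 CPM with F17. The 6 libraries apart spanned 5.31 to 13.3 CPM and the other 14 spanned 34.4 to 86.0 CPM, with no overlap.

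Within groups, the mean log2 difference of the 6 libraries from the others was -2.87 for hsp-16.2, -2.76 for hsp-16.41 and -2.90 for hsp-70. The same difference was 0.12 for hsp-1, -0.29 for hsp-3, 0.08 for hsp-4, 0.18 for hsp-6 and 0.29 for hsp-60. Thus 3 of the 8 tested chaperones were lower in each of the 6 libraries than in every other library once group levels were removed, which held for 11.2% of all tested genes. The gene of the factor that drives the inducible genes, hsf-1, differed by 0.32, the opposite sign. In whole animals, fewer cells of a type and less RNA per cell cannot be told apart. The part of the yolk-gene difference, and of any difference in age, in these values was not tested.

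**Figure D4:**
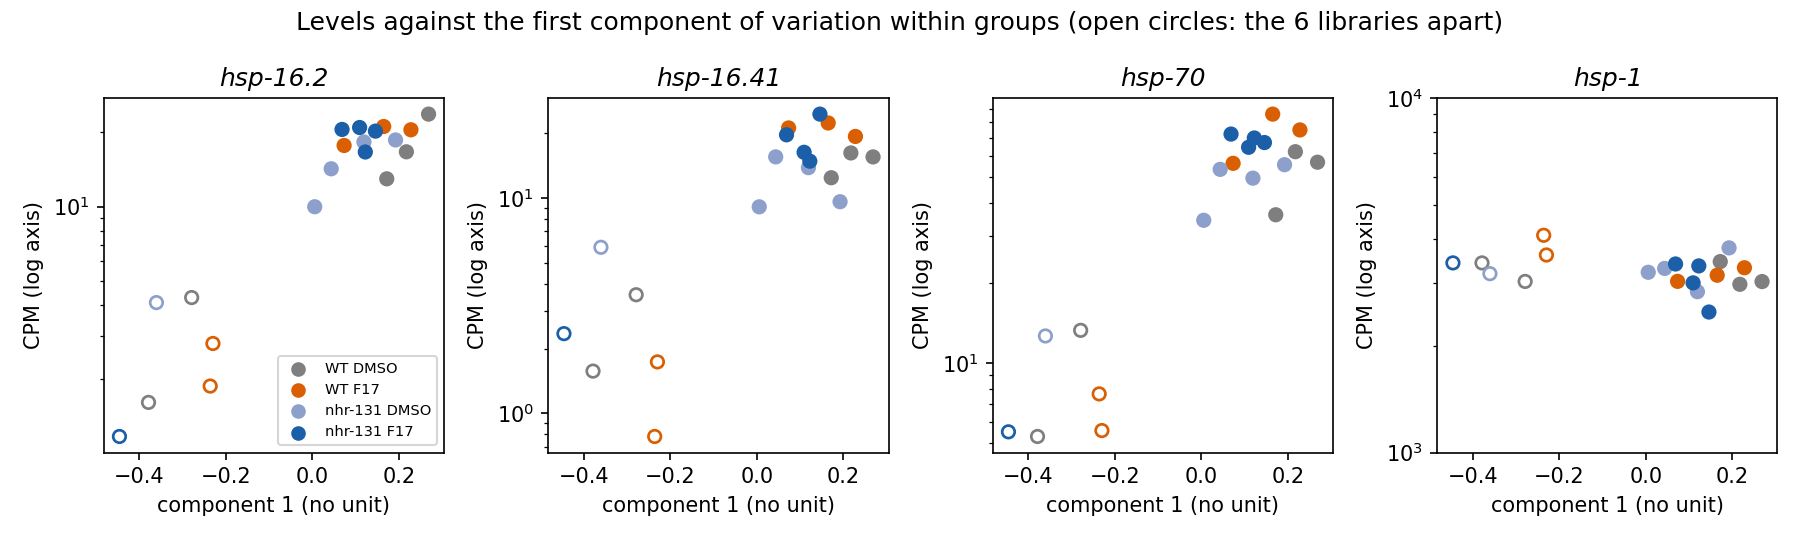
Level (CPM, log axis) of hsp-16.2, hsp-16.41, hsp-70 and hsp-1 against the score of each library on the leading component of variation inside groups, with open circles for the 6 libraries apart and colours for the 4 groups. The 3 inducible genes are low in all 6 libraries at the left, while hsp-1 lies between 2491 and 4101 CPM throughout.

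For these inducible genes the fold changes were not resolved. F17 against DMSO in wild type gave 0.12 for hsp-16.2 (95% interval -1.45 to 1.69), 0.41 for hsp-16.41 (-1.16 to 1.99) and 0.41 for hsp-70 (-1.17 to 1.99) on the log2 scale. In nhr-131 the values were 0.29 (-1.28 to 1.86), 0.53 (-1.05 to 2.10) and 0.45 (-1.13 to 2.03). The intervals allow differences of either sign. All 6 estimates changed sign when a score of yolk, sperm and oocyte genes was added to the model as a covariate. The lowest was -1.12 for hsp-16.2 in wild type. That score was not centred within groups. It ran from -0.59 to 0.49 in DMSO-treated wild type and from -0.33 to 1.46 in F17-treated wild type. The covariate and F17 therefore cannot be fully told apart in that model. Without the 6 libraries apart all 6 estimates were positive, from 0.15 to 0.64. None passed in either genotype, where 6.71% (wild type) and 1.04% (mutants) of all genes were called. There the mean F17 effect over both genotypes was 0.57 for hsp-16.41 (adjusted p = 0.0325 by edgeR) and 0.23 for hsp-4 (adjusted p = 0.0415 by edgeR), 2 calls among 8 chaperones where 3.67% of all genes were called. Over all 20 libraries that comparison called 0 of the 8 chaperones, against 1.03% of all genes, and hsp-4 alone was under a raw p of 0.05, against 6.31%.

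The other 2 small heat shock genes were near the detection limit. hsp-16.1 had 27 counts over the 20 libraries, at most 6 in any, and 10 libraries at 0. hsp-16.48 had 64 counts and 16 libraries at 0, and 52 of the counts came from library c of DMSO-treated mutants, in which hsp-16.2 and hsp-16.41 were low. A library at 0 allows a level of up to 0.110 to 0.282 CPM, the value of 3 counts, depending on its depth, which covers counting error only. Each has a near-identical copy on chromosome V, hsp-16.11 with 10 counts and hsp-16.49 with 19 counts, and how reads shared by the copies were counted is not stated, so these values are uncertain. Tested without the filter, neither gene passed in any comparison, and the lowest adjusted p by edgeR was 0.787.

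Lists of related, mostly cytosolic, genes had 0 called members in each of the 6 comparisons by edgeR. Tested were 8 other small heat shock, 14 other heat shock response, 8 HSP70 family, 18 co-chaperone and 14 chaperonin and prefoldin genes. The HSP70 list holds hsp-1 and hsp-70 themselves, and F44E5.4, F44E5.5 and hsp-110 stand in it and in the heat shock response list, as stc-1 does in it and in the endoplasmic reticulum list. For F17 in wild type the list medians were 0.15, 0.04, 0.09, -0.04 and -0.03 in that order, against -0.01 over all genes. Under a raw p of 0.05 were 1, 0, 0, 0 and 0 genes, against 7.6% of all genes. The 1 gene was sip-1, a small heat shock protein gene of embryos, at 1.15 (SE 0.32, adjusted p = 0.153 by edgeR). DESeq2 called it, among 197 of 13795 genes called there by DESeq2. The oocyte and sperm genes given above also lay above 0 in this comparison, and their part in the sip-1 value was not tested. Between genotypes under F17, where DESeq2 called 537 of 13795 genes, it also called cdc-37, an HSP90 co-chaperone gene. By edgeR cdc-37 stood at -0.50 (adjusted p = 0.111), and limma-voom called none of these lists. sip-1, cdc-37 and the next 5 genes were named after their values were seen. The HSP70 genes F44E5.4 and F44E5.5 read 2.45 to 8.82 and 2.32 to 9.06 CPM in the 14 libraries, and 0.156 to 2.87 and 0.469 to 2.15 CPM in the 6 apart. Related genes also went the other way: the HSP70 family gene F11F1.1 and the small heat shock genes hsp-12.2 and hsp-43 were wholly higher in the 6 libraries once group levels were removed, by 1.84, 1.57 and 1.23. Of the 8 small heat shock genes 1 was wholly lower and 2 wholly higher there, and of the 8 HSP70 genes 2 and 1, hsp-70 being 1 of the lower, against 11.2% and 8.39% of all genes. The factor gene hsf-1 differed by -0.03 with F17 in wild type, the HSP90 gene daf-21 by 0.12 and hsp-110 by 0.11, with adjusted p-values of 0.987, 0.926 and 0.841 by edgeR.

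The constitutive HSP70 gene hsp-1, on chromosome IV, folds new proteins in unstressed cells. It read 3039, 3036, 3427, 2983 and 3457 CPM in DMSO-treated wild type and 4101, 3040, 3164, 3608 and 3321 CPM in F17-treated wild type. It read 3778, 2843, 3196, 3225 and 3307 CPM in DMSO-treated mutants and 2491, 3010, 3427, 3361 and 3403 CPM in F17-treated mutants. The groups overlapped, and the F17 effect was 0.11 in wild type (95% interval -0.13 to 0.36) and -0.06 in nhr-131 (-0.31 to 0.19) on the log2 scale.

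Of the mitochondrial chaperones, hsp-6 on chromosome V encodes the mitochondrial HSP70 and hsp-60 on chromosome III the chaperonin that folds imported proteins. For hsp-6 the group means were 750 ± 58.4 CPM in DMSO-treated wild type, 698 ± 102 in F17-treated wild type, 753 ± 51.1 in DMSO-treated mutants and 676 ± 90.8 in F17-treated mutants (SD, n = 5 each). For hsp-60 the lowest, median and highest libraries were 666, 761 and 784 CPM in DMSO-treated wild type and 538, 598 and 1049 CPM in F17-treated wild type. They were 625, 759 and 1046 CPM in DMSO-treated mutants and 582, 650 and 780 CPM in F17-treated mutants. All groups of both genes overlapped over all 20 libraries, and single high libraries, a in F17-treated wild type and a in DMSO-treated mutants, set the upper end for hsp-60. The first of these is among the 6 libraries apart. The F17 effect on hsp-6 was -0.11 in wild type (95% interval -0.35 to 0.14) and -0.16 in nhr-131 (-0.40 to 0.09), and that on hsp-60 was -0.08 (-0.44 to 0.27) and -0.21 (-0.57 to 0.14). Without the 6 libraries apart hsp-60 read 666 to 778 CPM with DMSO and 538 to 598 CPM with F17 in wild type, and hsp-6 read 681 to 841 CPM and 591 to 658 CPM. The F17 effects there were -0.36 for hsp-60 (adjusted p = 0.163) and -0.27 for hsp-6 (adjusted p = 0.203), neither of which passed by edgeR. Of 20 other genes of the mitochondrial unfolded protein response tested, 0 were called by edgeR in any of the 6 comparisons. For F17 in wild type 3 of the 20 were under a raw p of 0.05, against 7.6% of all genes. There 7 of the 20 lay above 0, and the list median was -0.05 against -0.01 over all genes. DESeq2 called dve-1, a homeobox gene that acts in this response and is named after its value was seen, between genotypes under F17 (0.54, adjusted p = 0.0799 by edgeR). There DESeq2 called 537 of 13795 genes. The factor gene atfs-1 differed by -0.00 with F17 in wild type (95% interval -0.31 to 0.30).

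In the 3 remaining comparisons edgeR called 0 of the 8 chaperones: F17 in nhr-131, where 0.478% of all genes were called, the difference of the F17 effects (0.246%) and nhr-131 against wild type in DMSO (0.029%). None of the 8 was under a raw p of 0.05 in these comparisons, against 3.07%, 3.2% and 4.17% of all genes, and DESeq2 and limma-voom also called 0. Over all 20 libraries the groups compared overlapped for all 8 chaperones with F17 in wild type, with F17 in mutants and between genotypes in DMSO, where the groups of 2.36%, 0.877% and 0.877% of all genes did not.

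The order of the group levels was read against the SD within groups. Between groups next to each other in level, the gap exceeded the larger SD of the pair for hsp-4 from DMSO-treated wild type to F17-treated wild type, although those groups overlapped. It did not for any other neighbouring groups of the 8 genes.

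Among the 14 libraries left without those apart, with group means removed, hsp-1, hsp-3 and hsp-6 varied together, while most pairs with hsp-60 did not pass. Pearson's r was 0.933 for hsp-3 with hsp-6 (Spearman's rho 0.855, adjusted permutation p = 0.00028 for r and 0.00294 for rho). It was 0.889 for hsp-1 with hsp-6 (rho 0.921, adjusted permutation p = 0.00028 and 0.00056) and 0.803 for hsp-1 with hsp-3 (rho 0.798, adjusted permutation p = 0.00532 and 0.0105). Without the 2 libraries farthest from the median of the first gene, these r were 0.892, 0.825 and 0.674. For hsp-1 with hsp-4 r was 0.715 (rho 0.701, adjusted permutation p = 0.0248 and 0.0458), and 0.762 without the 2 farthest. For hsp-16.2 with hsp-70 r was 0.729 (rho 0.565, adjusted permutation p = 0.0228 and 0.134) and fell to 0.371 without the 2 farthest, so it rests on those libraries. For hsp-60, r was 0.658 with hsp-3 (rho 0.631, adjusted permutation p = 0.0314 and 0.0937), 0.582 with hsp-6 (rho 0.622, adjusted permutation p = 0.0936 and 0.0937) and 0.558 with hsp-1 (rho 0.543, adjusted permutation p = 0.121 and 0.134). The BiP genes hsp-3 and hsp-4 had r of 0.343 (rho 0.301, adjusted permutation p = 0.356 and 0.458). The neighbours hsp-16.2 and hsp-16.41 had r of 0.401 (rho 0.279, adjusted permutation p = 0.292 and 0.492). These come from 28 pairs, adjusted by the Benjamini-Hochberg method, and the libraries share depth and composition. The permutations shuffled the 14 deviations freely across groups, although removing group means leaves fewer independent values, so the p-values may be too small. Those near 0.05 are uncertain.

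Outside the 10 genes, those whose deviations from group means were most like each chaperone's were ranked by Pearson's r over the 20 libraries. For hsp-1 they were pab-1 (0.954) and cct-7 (0.932), for hsp-3 B0416.5 (0.970) and gdh-1 (0.970), for hsp-6 pod-2 (0.955) and eif-3.B (0.944), and for hsp-60 etr-1 (0.938) and F42A10.7 (0.932). Over the 14 libraries alone these r lay between 0.900 for etr-1 and 0.984 for pod-2. For hsp-4 they were gst-8 (0.891) and F40E3.5 (0.824), with 0.571 and 0.479 over the 14. For the inducible genes they were F44A6.5 and tts-1 (hsp-16.2), C26B9.3 and Y38A10A.2 (hsp-16.41) and H25K10.1 and rhy-1 (hsp-70), and because the 6 libraries form a separate cluster only the r over the 14 are given: 0.491, 0.729, 0.560, 0.745, 0.669 and 0.347.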

How the data were processed

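The authors deposited whole-number read counts per gene for 20 libraries, made with TopHat2 and HTSeq per the submitters' processing notes; their versions, the build and the handling of shared reads were not stated in those notes, so no coordinates are printed. Counts were tested in R 4.3.3 with edgeR 4.0.16 (filterByExpr by group, minimum count 10; TMM; robust quasi-likelihood F-test; 4 group means, all 20 libraries, 16 residual degrees of freedom), adjusted by the Benjamini-Hochberg method over 13795 genes at 0.05. SE values were derived from the fold change and its F statistic (size of the log2 value over the root of F). Alternatives used DESeq2 1.42.0 and limma 3.58.1. The procedure was tested on simulated counts.

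Correlations used log2 CPM with a prior count of 2 and 100000 permutations. Coding lengths and strands are from the Ensembl annotation of WBcel235, and chromosomes and gene order from RefSeq gene records. A planned comparison of sequences was not run. P-values measure the spread between libraries, which the labels call independent biological replicates. No libraries of a group were copies. Libraries sharing a letter across groups were not treated as pairs. Same-letter pairs correlated above 0.1 in 4 of 5 cases for F17 in mutants and for genotype in DMSO. They did in 2 of 5 for F17 in wild type and for genotype under F17. Whether letters mark shared batches was not settled.

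The genes, lists and alternatives were chosen with earlier results of these data known. Named genes are the 10 chaperones, called list members, 6 reference genes (hsf-1, daf-21, hsp-110, xbp-1, enpl-1, atfs-1) and the 2 genes most correlated with each chaperone; others are marked in the text as picked with values in view. Developmental lists were molt, yolk, sperm and oocyte genes. Between genotypes under F17, 2 of 6 molt genes were called lower (noah-1, -1.10, and noah-2, -1.16), against 0.747% of all genes. By edgeR 0 of 6 yolk, 0 of 26 sperm and 0 of 10 oocyte genes were called there. At a raw p under 0.05 were 3, 0 and 1 of them, against 15% of all genes. The medians of these lists are given with the hsp-4 result.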

Additional observations from a re-analysis of the deposited data

Results flagged for a closer look

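Of 32 sets of 5 libraries (8 genes in 4 groups), 2 held a library far from the others, in a check that chance meets in about 1 in 20 groups. In F17-treated mutants, hsp-16.2 read 1.17 CPM in library c and 16.7 to 20.9 CPM in the other 4. In the same library hsp-70 read 5.52 CPM, against 64.5 to 72.4 CPM in the other 4. Library c is the 1 library of that group among the 6 apart; in groups that hold 2 such libraries the check cannot single out either.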

How the results depend on the processing

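Each of the 8 genes was refitted for the 6 comparisons under 29 or 30 alternatives. Counts of called chaperones stayed at 0 or 1 as reported, except that without the 6 libraries apart 1 was called for F17 in wild type and 2 for the mean F17 effect, and that 0 were called between genotypes under F17 with no filter and 0 to 1 over the left-out libraries. The replicate block, which uses the column letters, left the counts at 0, 0, 0, 0, 1 and 0; the letters were not taken to pair libraries, since in no comparison did all 5 pairs correlate above 0.1 (at most 4 did) and 6 of 20 libraries correlated best with a library of their own letter, and hsp-4 in F17 was -0.45 with the block (adjusted p = 0.0404 by edgeR). Of 1424 refits 96 changed sign, none of a called value; the cause was not tested. Low counts limit what can be read from hsp-16.1 and hsp-16.48, and how reads shared with their near-identical copies were counted is not stated. Over all genes, calls without the 6 libraries apart numbered 906 against 128 for F17 in wild type, 140 against 66 for F17 in mutants, 116 against 34 for the difference, 11 against 4 for genotype in DMSO, 1019 against 177 under F17 and 496, 3.67% against 1.03% of genes, for the mean effect. DESeq2 gave 197, 52, 11 and 537 for F17 in wild type, the difference and genotype in DMSO and under F17. Genotype under F17 gave 815 with the developmental covariate, 107 with the compared groups alone and 83 to 449 over the left-out libraries, and the difference gave 20 with the block and 19 to 31 over the left-out libraries.

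With the developmental covariate, values turned to -1.12 (hsp-16.2), -0.76 (hsp-16.41), -0.88 (hsp-70), 0.0073 (hsp-6) and 0.067 (hsp-60) for F17 in wild type, -0.52 (hsp-16.2), -0.29 (hsp-16.41) and -0.38 (hsp-70) for F17 in mutants and -0.82 (hsp-16.2), -0.52 (hsp-16.41) and -0.63 (hsp-70) for the mean effect. Without the 6 libraries apart they turned to -0.0045 (hsp-1) for F17 in wild type, 0.060 (hsp-6) and 0.074 (hsp-60) for the difference of effects, -0.23 (hsp-16.2), -0.30 (hsp-16.41), -0.11 (hsp-70), 0.012 (hsp-4) and -0.011 (hsp-6) for genotype in DMSO, -0.014 (hsp-16.2), -0.16 (hsp-16.41), -0.079 (hsp-70), 0.049 (hsp-6) and 0.18 (hsp-60) for genotype under F17 and -0.055 (hsp-1) for the mean effect. With the replicate block they turned to -0.31 (hsp-16.2), -0.011 (hsp-16.41) and -0.43 (hsp-70) for the difference of effects and -0.015 (hsp-16.2) and -0.046 (hsp-70) for genotype under F17. With limma-voom they turned to -0.22 (hsp-16.2) and -0.051 (hsp-70) for the difference of effects. With upper-quartile factors they turned to -0.018 (hsp-1) and -0.048 (hsp-6) for genotype in DMSO and -0.019 (hsp-3) for genotype under F17. With a filter of 50 counts in 5 libraries they turned to -0.013 (hsp-6) for genotype in DMSO and -0.0053 (hsp-3) for genotype under F17. With a fit of the compared groups alone they turned to -0.0036 (hsp-6) for genotype in DMSO.

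Sign changes also came from leaving out a library. Ranges over the left-out libraries for F17 in wild type were -0.17 to 0.53 (hsp-16.2) and -0.28 to 0.0092 (hsp-60). For F17 in mutants they were -0.10 to 0.014 (hsp-1). For the difference of effects they were -0.24 to 0.47 (hsp-16.2), -0.19 to 0.40 (hsp-16.41), -0.28 to 0.39 (hsp-70), -0.10 to 0.025 (hsp-6) and -0.21 to 0.061 (hsp-60). For genotype in DMSO they were -0.15 to 0.55 (hsp-16.2), -0.15 to 0.39 (hsp-16.41), -0.027 to 0.050 (hsp-6), -0.039 to 0.56 (hsp-70), -0.15 to 0.0032 (hsp-3), -0.020 to 0.083 (hsp-1) and -0.066 to 0.14 (hsp-60). For genotype under F17 they were -0.054 to 0.54 (hsp-16.41), -0.10 to 0.030 (hsp-6), -0.14 to 0.13 (hsp-60) and -0.041 to 0.10 (hsp-3). For the mean effect they were -0.0079 to 0.063 (hsp-1).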

Other observations

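The small counts of the near-identical small heat shock genes were mostly even numbers. Of 25 counts above 0 in hsp-16.1, hsp-16.11, hsp-16.48 and hsp-16.49, 23 were even, against 39.8% of the 101293 table entries from 1 to 10. The count of 52 in hsp-16.48 lies outside that range, and 36965 of the table entries were 1, so the sets are not alike. The cause of the even counts was not tested.

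The gene whose deviations were most like those of hsp-4, gst-8 of the glutathione S-transferase family, rose with F17 by 6.58 on the log2 scale in wild type (SE 0.58, adjusted p = 4.02e-07 by edgeR) and by 3.82 in nhr-131 (SE 0.82, adjusted p = 0.0382 by edgeR). The difference of these effects was -2.76 (SE 1.39, adjusted p = 0.9998 by edgeR). Between genotypes, nhr-131 against wild type, gst-8 differed by -6.57 under F17 (SE 0.58, adjusted p = 8.95e-07 by edgeR). With DMSO the genotypes differed by -3.81 (SE 0.82, adjusted p = 0.339 by edgeR). The other gene most like hsp-4, F40E3.5, was not called in any comparison, with 0.71 for F17 in wild type (adjusted p = 0.820 by edgeR).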
